A study of Rattus norvegicus with 15 samples.

Results

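The nuclear-encoded subunits of the respiratory complexes II to V were followed in rat kidneys after allogeneic (aTX) and syngeneic (sTX) transplantation and in control (ctr) kidneys. They belong to complex II (succinate dehydrogenase), complex III (cytochrome bc1 complex), complex IV (cytochrome c oxidase) and complex V (ATP synthase). Members were the probe sets of the array whose only gene symbol was Sdha, Sdhb, Sdhc, Sdhd, Cyc1 or Cycs or began with Uqcr, Cox4i, Cox5, Cox6, Cox7, Cox8 or Atp5, and each gene was represented by its probe set with the highest mean log2 signal over all 15 arrays. This gave 45 genes, from 51 probe sets, of the 14217 genes that carried a symbol of their own: 4 of complex II, 8 of complex III with Cyc1, 17 of complex IV and 16 of complex V. Cycs had no member, because both of its probe sets carry several symbols, and for the same reason 7 probe sets were left out in all, among them those of Atp5mc1, Atp5mc2, Cox7a2 and Uqcrb and the bright one of Cox5a. The letters that follow Cox in a symbol cover some relatives as well, namely the pseudogene Cox6c-ps1 and Cox7a2l.

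The 3 groups of 5 male rats aged 10 to 12 weeks were measured on Affymetrix Rat Genome 230 2.0 arrays, 1 kidney per array, so that 5 arrays per group set the precision. Signals are the deposited MAS5 values, which have no unit and a trimmed mean of 100 on every array. The aTX kidneys came from Lewis-Brown-Norway (LBN) donors and had been placed into Lewis (LEW) recipients, whereas the sTX kidneys were LBN kidneys in LBN recipients. The ctr kidneys were native, untransplanted LBN kidneys. Grafts were taken on the fourth day, and both kidneys of each recipient had been removed at surgery. All 3 groups are kidneys of LBN origin, but any recipient cells within a graft are LEW in aTX and LBN in sTX. The source names of the samples give other strains than these, and for sTX 4 and sTX 5 the treatment field says allogeneic against the title. Groups were taken from the titles. Of the 14 proximal tubule markers examined, 0 had a mean signal under 20 in any group. The labels pair no graft with a ctr kidney. The p-values of the main comparisons rest on the spread between arrays within groups. That spread is pooled over the 3 groups and drawn toward that of probe sets of like signal.

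Oxidative phosphorylation couples the passage of electrons along the inner mitochondrial membrane to the making of ATP. Complex II feeds electrons from succinate into ubiquinone, complex III passes them to cytochrome c, complex IV hands them to oxygen, and complex V uses the proton gradient built on the way. The reabsorbing epithelium of the proximal tubule and the thick ascending limb depends on this supply and is dense in mitochondria. Most subunits are encoded in the nucleus, and the transcription factors NRF1, GABPA (an ETS factor) and the estrogen-related receptors (ERR) are known regulators of their genes.

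Promoters were read for motifs of these factors as a description only. The part of the motifs in the member changes was not tested. RefSeq promoters on GRCr8, each 300 bases long from 250 bases before the gene's start, were found for 38 of the 45 members. The GABPA core CCGGAAG occurred on either strand in 13 of these 38 (34.2%), against 9.22% of all 27457 promoters in the table. The NRF1 core GCATGCGC was present in 5 members (13.2%), against 2.66% of all promoters, and the ERR element TCAAGGTC in 2 (5.3%), against 1.04%. At least 1 of the 3 motifs stood in 16 of the 38 member promoters. The following 6 belong to members described below. Sdhd, Uqcrq, Cox8a and Atp5me are shown for their matches, Atp5mpl as a member that was lower in aTX grafts and has none, and Cox7a2l as the one that was higher. Of the other members described as lower, Sdha, Cox7c and Atp5mf are among those with no match. The stretches run 5′ to 3′ on the strand of the gene, with matches in capitals on either strand. In Atp5me the NRF1 core and its reverse complement overlap in 1 run, and the Atp5mpl and Cox7a2l stretches hold none of the 3.
Sdhd, chr8:59850592-59850891, minus strand: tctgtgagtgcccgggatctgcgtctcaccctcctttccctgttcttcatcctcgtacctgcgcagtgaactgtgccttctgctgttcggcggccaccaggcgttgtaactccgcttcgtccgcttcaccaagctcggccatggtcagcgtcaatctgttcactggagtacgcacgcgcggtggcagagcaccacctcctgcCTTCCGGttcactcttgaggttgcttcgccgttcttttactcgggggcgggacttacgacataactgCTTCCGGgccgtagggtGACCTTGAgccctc
Uqcrq, chr10:38089929-38090228, minus strand: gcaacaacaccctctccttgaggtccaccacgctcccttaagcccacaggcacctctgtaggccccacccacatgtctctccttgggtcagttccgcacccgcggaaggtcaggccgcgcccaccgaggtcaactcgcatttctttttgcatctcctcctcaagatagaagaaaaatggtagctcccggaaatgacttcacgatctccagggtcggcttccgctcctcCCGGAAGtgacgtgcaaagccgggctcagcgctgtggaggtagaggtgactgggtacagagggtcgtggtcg
Cox8a, chr1:213833574-213833873, minus strand: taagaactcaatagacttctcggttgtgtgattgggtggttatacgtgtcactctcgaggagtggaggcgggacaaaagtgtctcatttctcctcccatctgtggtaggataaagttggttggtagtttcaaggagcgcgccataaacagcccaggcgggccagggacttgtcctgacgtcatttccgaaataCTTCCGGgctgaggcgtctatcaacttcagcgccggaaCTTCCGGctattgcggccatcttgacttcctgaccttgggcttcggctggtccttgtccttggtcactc
Atp5me, chr14:1464610-1464909, plus strand: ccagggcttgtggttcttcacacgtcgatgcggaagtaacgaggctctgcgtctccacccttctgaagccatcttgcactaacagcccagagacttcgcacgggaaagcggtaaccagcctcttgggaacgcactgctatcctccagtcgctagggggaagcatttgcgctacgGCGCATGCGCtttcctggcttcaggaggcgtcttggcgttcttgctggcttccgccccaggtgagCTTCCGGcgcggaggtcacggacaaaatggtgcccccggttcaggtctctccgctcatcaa
Atp5mpl, chr6:136845591-136845890, minus strand: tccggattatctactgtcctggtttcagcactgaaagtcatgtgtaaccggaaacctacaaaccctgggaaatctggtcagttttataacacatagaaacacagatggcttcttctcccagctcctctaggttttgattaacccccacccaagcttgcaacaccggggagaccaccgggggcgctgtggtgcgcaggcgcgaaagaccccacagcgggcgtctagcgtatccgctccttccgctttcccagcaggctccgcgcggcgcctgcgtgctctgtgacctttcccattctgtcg
Cox7a2l, chr6:16936324-16936623, plus strand: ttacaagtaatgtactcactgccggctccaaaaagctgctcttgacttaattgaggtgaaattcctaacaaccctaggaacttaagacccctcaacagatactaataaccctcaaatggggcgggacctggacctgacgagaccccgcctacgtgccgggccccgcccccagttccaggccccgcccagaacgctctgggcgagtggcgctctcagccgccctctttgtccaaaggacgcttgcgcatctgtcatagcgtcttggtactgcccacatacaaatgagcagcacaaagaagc

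In aTX grafts the respiratory chain genes were lower than in ctr kidneys by a modest amount and in near unison. Of the 45 members, 32 fell and 1 rose, and 12 did not pass the test (adjusted p below 0.05). That is 71.1% lower, against 22.2% of all 31042 probe sets tested in the same limma fit, and 2.2% higher, against 20.2% of all. The median log2 change of the members was -0.35, which is 21.3% less signal, while the median over all probe sets was -0.075. In 31 members every aTX array lay below every ctr array, which was so for 16.9% of all probe sets. In whole kidney, fewer cells of a type and less RNA per cell cannot be told apart.

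Because strongly hybridising probe sets are called more often, members were also read against probe sets of like signal. A mean signal of at least 500 was reached by 37 members, and the other 8 stayed under 100. Among the 37, 29 fell (78.4%) and 1 rose (2.7%), against 46.8% lower and 34.3% higher among the 1928 probe sets of at least 500. Their median change was -0.35, with -0.148 over those 1928. Across these 37, the 9 with a mean signal of at least 3000 had a median change of -0.22 and 3 of them fell, set against 28.0% lower and a median of -0.07 over all 125 probe sets of that signal. The other 28 had a median of -0.36 and 26 of them fell. Spearman's rho between mean signal and change across the 37 was 0.31 and Pearson's r with log2 signal was -0.01. These are descriptions across genes that share the same 10 arrays.

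**Figure D1:**
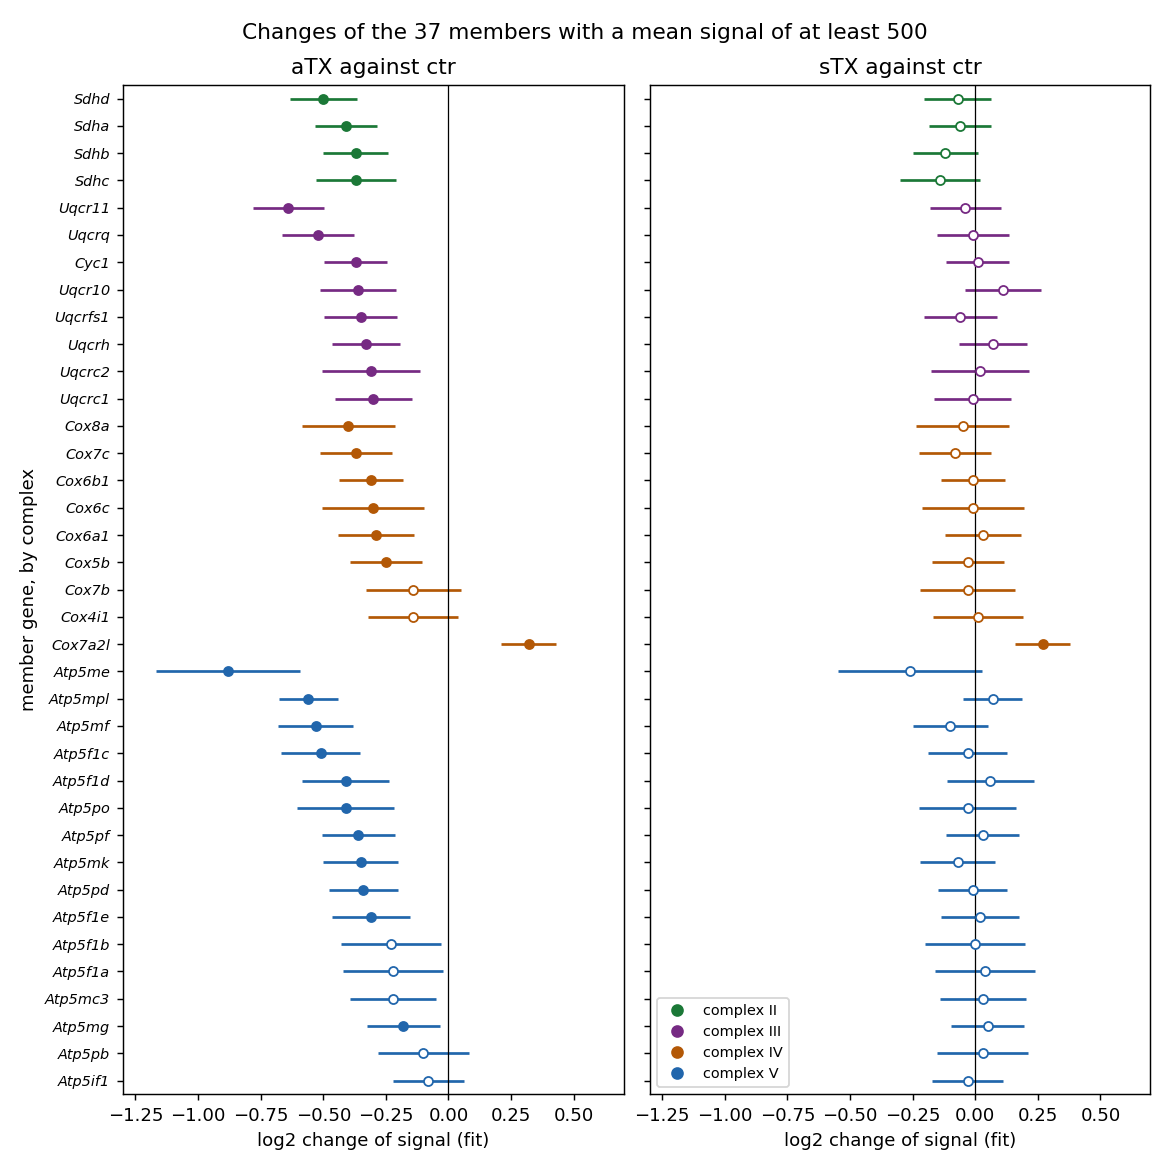
Log2 change of signal (x axis) of the 37 members with a mean signal of at least 500, ordered by complex, for aTX against ctr on the left and sTX against ctr on the right. Bars span 2 standard errors either side, filled points passed the test and open points did not; on the left 29 points are filled below 0, while Cox7a2l alone is filled above 0 in both panels.

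Cell type markers moved much further than the members. Of 21 leukocyte markers, 18 rose in aTX grafts against ctr, with a median log2 change of 3.92, and their summed signal was 9646.3 to 11928.7 in aTX, 3130.8 to 4521.8 in sTX and 1993.7 to 2540.9 in ctr. Of 14 proximal tubule markers 12 fell in aTX, with a median of -0.95 and sums of 16760.3 to 22217.9 in aTX, 30409.3 to 36973.4 in sTX and 33494.5 to 43625.3 in ctr. Thick limb and distal tubule markers (7 of 8 lower, median -0.98), collecting duct (7 of 8, -0.97), podocyte (4 of 4, -1.10) and endothelium (5 of 5, -1.29) fell too. The largest of these changes were Itgam (6.06), Cd8a (5.67) and Cd163 (5.14) for leukocytes and Slc22a6 (-2.17), Lrp2 (-1.89) and Slc22a8 (-1.85) for the proximal tubule. The part of cell make-up in the member changes was not tested.

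RNA measures moved with the groups as well. The ratio of 3′ to 5′ signal of the Gapdh control probe sets averaged 1.04 ± 0.0253 in aTX, 1.10 ± 0.0233 in sTX and 1.17 ± 0.0469 in ctr (SD, n = 5 each), and that of actin 1.23 ± 0.0577 in aTX, 1.51 ± 0.0594 in sTX and 1.74 ± 0.168 in ctr. Each of the 6 pairwise differences had an adjusted p of 0.0159 (exact permutation test, two-sided, Benjamini-Hochberg over the 6). The part of RNA integrity in the member signals was not tested.

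The 4 genes of complex II, which is also an enzyme of the citrate cycle, all fell in aTX grafts, with a median of -0.39. Sdha, the flavoprotein that oxidises succinate, had signals of 1568, 1543, 1582, 1668 and 1636 in aTX grafts, 2021, 2018, 2003, 1986 and 2195 in sTX grafts and 2173, 2131, 1921, 2143 and 2271 in ctr kidneys. All 5 aTX arrays lay below the lowest ctr array, and sTX and ctr arrays overlapped. The change was -0.41 (SE 0.062, adjusted p = 1.38e-05). Sdhb, the iron-sulfur subunit beside it, gave 1766, 1850.4, 1805, 1749 and 1624 in aTX grafts, 2112, 2020.1, 2001, 2106 and 2286 in sTX grafts and 2152, 2171, 2303, 2317 and 2459 in ctr kidneys. Here too the aTX arrays were apart from both other groups, and its change was -0.37 (SE 0.065, adjusted p = 6.78e-05).

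Both membrane anchors, which hold the ubiquinone site, moved the same way. Sdhc gave 1934, 2178, 2119, 2266 and 1929 in aTX grafts, 2394, 2565, 2195, 2308 and 2806 in sTX grafts and 2658, 2518, 2498, 2831 and 2957 in ctr kidneys. Its aTX arrays were below every ctr array but overlapped with sTX, and the change was -0.37 (SE 0.08, adjusted p = 0.000713). Sdhd gave 1322, 1429, 1408, 1523 and 1319.6 in aTX grafts, 1867, 1798, 1779.7, 1828 and 2139 in sTX grafts and 1972, 1988, 1920.5, 1907 and 2074 in ctr kidneys. Every aTX array was lower than every array of the other groups, and the change was -0.50 (SE 0.067, adjusted p = 3.15e-06). A second Sdhd probe set changed alike, by -0.52 (SE 0.071, adjusted p = 4.39e-06).

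All 8 measured genes of complex III fell, with a median of -0.35. The largest falls were those of Uqcr11 and Uqcrq, both small subunits. Uqcr11, a small membrane subunit, had signals of 1409.8, 1362, 1275, 1417 and 1384 in aTX grafts, 1935, 2058, 1852, 2116 and 2421 in sTX grafts and 2135, 2083, 2183, 2031 and 2212 in ctr kidneys. No aTX array came near the ctr range, and the change of -0.64 (SE 0.071, adjusted p = 2.6e-07) was the most negative of the complex. Uqcrq, the ubiquinone-binding small subunit, gave 1804, 1954, 1965, 1984 and 1588 in aTX grafts, 2638, 2702, 2433, 2642 and 2751 in sTX grafts and 2497, 2578, 2677, 2758 and 2748 in ctr kidneys. The aTX arrays were again separate from both groups, at -0.52 (SE 0.072, adjusted p = 4.85e-06). Cyc1, the cytochrome c1 that carries electrons to cytochrome c, gave 1727, 1702, 1594, 1550.0 and 1555 in aTX grafts, 2163, 2229, 1993, 2003 and 2142 in sTX grafts and 2159.8, 2134, 1959.5, 2066 and 2164 in ctr kidneys. Its aTX arrays stood below all others, while sTX and ctr lay on top of each other; the change was -0.37 (SE 0.063, adjusted p = 5.57e-05).

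Among the other complex III genes, Uqcr10, a small subunit, averaged 2321 ± 115 in aTX, 3216 ± 291 in sTX and 2986 ± 196 in ctr (SD, n = 5 each) and Uqcrh, the hinge protein, averaged 1617 ± 95.9 in aTX, 2132 ± 179.6 in sTX and 2024 ± 70.7 in ctr (SD, n = 5 each). Both fell, by 0.36 and by 0.33 on the log2 scale. The Rieske iron-sulfur protein Uqcrfs1 fell by 0.35. The core proteins Uqcrc1 and Uqcrc2, which face the matrix, had the smallest changes of the complex, -0.30 and -0.31. The call of Uqcrc2 rests on 1 of its probe sets: the other changed by -0.01 (SE 0.21, adjusted p = 0.983), and within 1 fluidics run the first changed by -0.16 (adjusted p = 0.175).

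In complex V, 11 of 16 genes fell and 0 rose, with a median of -0.34. The most negative changes of the complex were those of Atp5me, Atp5mpl and Atp5mf, all small subunits of the membrane part. Atp5me, subunit e, gave 733, 568, 785, 715 and 802 in aTX grafts, 1193, 1233, 806, 1129 and 1219 in sTX grafts and 1403, 1514, 1643, 909.8 and 1247 in ctr kidneys. The aTX arrays were all below both other groups, ctr 4 was the lowest of the controls, and the change was -0.88 (SE 0.14, adjusted p = 3.3e-05). A second Atp5me probe set, with signals of 2.9 to 18.6, did not pass the test (-0.19, adjusted p = 0.803). Atp5mpl, the small proteolipid associated with the enzyme, gave 845, 821, 865, 889 and 887 in aTX grafts, 1259, 1283, 1269.8, 1423 and 1427 in sTX grafts and 1235, 1208, 1281, 1291 and 1316 in ctr kidneys. Its aTX arrays were tightly grouped and far below the rest, at -0.56 (SE 0.059, adjusted p = 1.32e-07). Atp5mf, subunit f, gave 2011, 2200.4, 2015, 2027 and 1799.5 in aTX grafts, 2649, 2636, 2491, 2638 and 3094 in sTX grafts and 2841, 2886, 2652, 2956 and 3147 in ctr kidneys. These arrays were separate as well, with a change of -0.53 (SE 0.075, adjusted p = 6.96e-06).

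Among the other membrane subunits, Atp5mk (the DAPIT protein) fell by 0.35, and Atp5mg, subunit g, fell by 0.18 with an adjusted p of 0.0484 that 12 of 15 repeats without 1 array brought above 0.05. Atp5mc3 encodes subunit c, the ring that turns with the proton flow, and is the only one of its 3 genes measured here. It gave 2964, 3462, 3248, 3181 and 2771 in aTX grafts, 3694, 3661, 3269, 3566 and 4316 in sTX grafts and 3473, 3398, 3409.9, 3809.5 and 4048 in ctr kidneys. Its aTX and ctr arrays overlapped by a narrow margin, and the change of -0.22 (SE 0.086, adjusted p = 0.0513) did not pass the test. It passed in 5 of 15 repeats without 1 array, with each array centred on its median (-0.29, adjusted p = 0.0118) and after quantile normalization (-0.27, adjusted p = 0.000397). Within 1 fluidics run the change of Atp5mc3 was smaller and did not pass (-0.14, adjusted p = 0.261).

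In the catalytic head and its central stalk 3 of 5 genes passed the test. Atp5f1c, the gamma subunit of the central stalk, averaged 2583 ± 156 in aTX, 3602 ± 317 in sTX and 3670.0 ± 281 in ctr (SD, n = 5 each) and fell by 0.51. Atp5f1d (delta) fell by 0.41 and Atp5f1e (epsilon) by 0.31. For the catalytic beta subunit Atp5f1b the signals were 3919, 4492, 4069.6, 3949.6 and 3379 in aTX grafts, 4616, 4997, 3941, 4441 and 5225 in sTX grafts and 4665, 4194, 4066, 5327 and 5052 in ctr kidneys. The aTX and ctr ranges overlapped and the change, -0.23 (SE 0.1, adjusted p = 0.0696), did not pass, nor did that of the alpha subunit Atp5f1a, -0.22 (SE 0.1, adjusted p = 0.0815). Both were called lower after quantile normalization, Atp5f1b with -0.25 (adjusted p = 0.000868) and Atp5f1a with -0.28 (adjusted p = 0.000308), and with each array centred on its median, Atp5f1b with -0.31 (adjusted p = 0.0199) and Atp5f1a with -0.30 (adjusted p = 0.02). Within 1 fluidics run Atp5f1b changed by only -0.15 (adjusted p = 0.289). Of 15 repeats without 1 array, Atp5f1b passed in 2 and Atp5f1a in 1. Whether the changes of alpha and beta differ from that of gamma was not tested.

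Of the peripheral stalk, which keeps the head from turning, Atp5po, the oligomycin sensitivity protein, fell by 0.41, the coupling factor Atp5pf by 0.36 and Atp5pd by 0.34. Atp5pb, subunit b, averaged 3038 ± 293 in aTX, 3337 ± 335 in sTX and 3259 ± 308 in ctr (SD, n = 5 each) and did not pass (-0.10, adjusted p = 0.419), but was called lower after quantile normalization (-0.15, adjusted p = 0.0241). The inhibitor Atp5if1, which stops the enzyme from splitting ATP, averaged 813 ± 64 in aTX, 843 ± 70 in sTX and 860.3 ± 47.9 in ctr (SD, n = 5 each) and had the smallest change of the complex, -0.08 (SE 0.071, adjusted p = 0.389). An interval of 2 SE either side ran from -0.23 to 0.06.

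Complex IV alone had a member that rose. Of its 17 members 9 fell, 1 rose and 7 did not pass, but 8 of the 17 had signals under 100. Among its 9 members of at least 500, 6 fell, 1 rose and 2 did not pass, beside 11 of 16 lower in complex V. Its 9 subunits of general use had a median of -0.29, and 6 of them fell. Cox8a, a small membrane subunit, gave 2931, 3388, 3163, 3359 and 2865 in aTX grafts, 3934, 3859, 3557, 3950.0 and 4627 in sTX grafts and 3928, 3626, 3806, 4656 and 4711 in ctr kidneys. All aTX arrays were below both other groups, at -0.40 (SE 0.093, adjusted p = 0.00149). Cox7c gave 1741, 1827, 1676, 1751 and 1631 in aTX grafts, 2078, 2298, 1902, 1969 and 2270.4 in sTX grafts and 2081, 2150.5, 2117, 2329 and 2448 in ctr kidneys. This small subunit was also separate from both groups, with -0.37 (SE 0.072, adjusted p = 0.000273).

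Cox6b1, on the outer face, where cytochrome c docks, gave 2125, 2019, 1954, 2033 and 1928 in aTX grafts, 2428, 2374, 2415, 2497 and 2690.3 in sTX grafts and 2366, 2343, 2660.4, 2529 and 2604 in ctr kidneys. The aTX arrays were again lowest, at -0.31 (SE 0.064, adjusted p = 0.000428). Cox6a1 gave 2323, 2583, 2386, 2358 and 2157 in aTX grafts, 2884, 3139.6, 2567, 2967 and 3187 in sTX grafts and 2788, 2755, 2715, 3084 and 3118 in ctr kidneys. This subunit of the dimer contact was lower in all aTX arrays than in any ctr array but overlapped with sTX, and its change was -0.29 (SE 0.076, adjusted p = 0.00371). Cox6c fell by 0.30 and Cox5b, which binds zinc, by 0.25. Neither of these 2 passed within 1 fluidics run, with -0.27 (Cox6c, adjusted p = 0.0684) and -0.19 (Cox5b, adjusted p = 0.0675).

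Cox4i1, the largest nuclear-encoded subunit and a regulator of the enzyme, did not pass. Its signals were 3346, 3678, 3484, 3434 and 2984 in aTX grafts, 3729, 3989, 3301, 3614 and 4169 in sTX grafts and 3759, 3413, 3252, 4094 and 4216 in ctr kidneys. The 3 groups overlapped, with -0.14 (SE 0.09, adjusted p = 0.229) and an interval of 2 SE from -0.32 to 0.04. Cox7b gave 2938, 3464, 3222, 3007 and 2412 in aTX grafts, 3123, 3578, 2840.1, 3151 and 3489 in sTX grafts and 3293, 3184, 2969, 3614 and 3442 in ctr kidneys. This small subunit overlapped between groups as well, at -0.14 (SE 0.095, adjusted p = 0.263). After quantile normalization both were called lower, Cox4i1 with -0.17 (adjusted p = 0.00858) and Cox7b with -0.20 (adjusted p = 0.00594). Cox4i1 did not pass with each array centred on its median (-0.22, adjusted p = 0.0643) or within 1 fluidics run (-0.08, adjusted p = 0.597). Both genes passed in 0 of 15 repeats without 1 array. Cox5a was read only from a weak probe set, which averaged 78.6 ± 11.9 in aTX, 86.1 ± 15.1 in sTX and 84.2 ± 18.7 in ctr (SD, n = 5 each) and did not pass.

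Cox7a2l was the exception in direction. This relative of the Cox7a subunits helps to join complexes III and IV into supercomplexes. It had signals of 850.5, 746, 798, 768 and 734 in aTX grafts, 753, 754, 769.9, 726 and 747 in sTX grafts and 598, 641, 642, 613 and 614 in ctr kidneys. Every graft array, aTX and sTX, was higher than every ctr array. The change was 0.32 (SE 0.055, adjusted p = 6.01e-05) in aTX and 0.27 (SE 0.055, adjusted p = 0.00164) in sTX, both against the same 5 ctr arrays. When each array was centred on its median signal, the sTX change became 0.08 (adjusted p = 0.46) and the aTX change 0.25 (adjusted p = 0.00256). Within the run that holds both, aTX against ctr gave 0.31 (adjusted p = 0.00201).

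**Figure D2:**
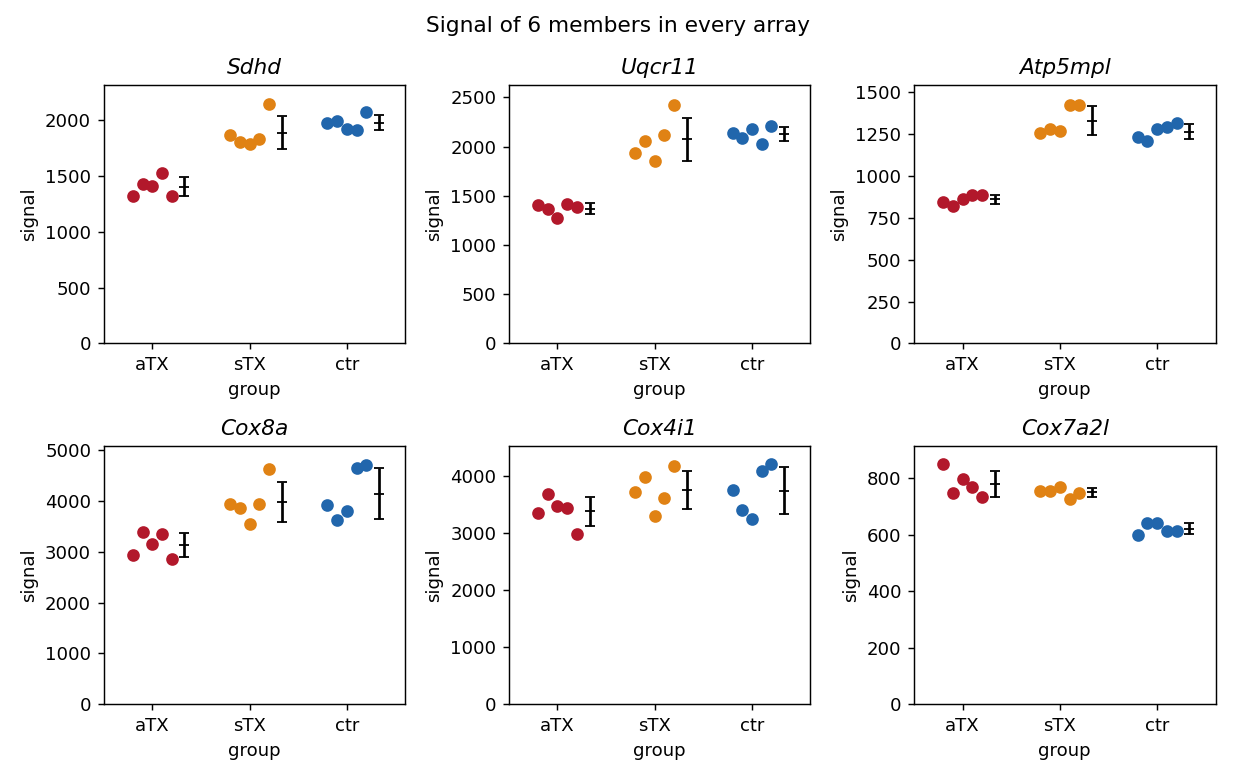
Signal (y axis, starting at 0) of 6 members in each of the 5 arrays per group, with the mean and SD beside the points. In Sdhd, Uqcr11, Atp5mpl and Cox8a the aTX arrays lie below all others, in Cox4i1 the groups overlap, and in Cox7a2l both graft groups lie above ctr.

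The isoforms of complex IV that heart and skeletal muscle, lung or testis use had signals under 100, where a fold says little. Cox4i2, the isoform of lung, gave 7.5, 7.5, 9.7, 13.0 and 10.4 in aTX grafts, 17.6, 23.4, 25.3, 29.9 and 42.3 in sTX grafts and 19.8, 23.4, 26.5, 20.9 and 17.2 in ctr kidneys. All aTX arrays were below both other groups, at -1.18 (SE 0.26, adjusted p = 0.000707). Cox7a1, of muscle, gave 14.7, 3.2, 3.3, 1.7 and 10.3 in aTX grafts, 2.5, 26.4, 34.6, 16.6 and 22.1 in sTX grafts and 19.1, 18.8, 19.0, 24.6 and 27.5 in ctr kidneys. The sTX arrays spread over the range of both other groups, and the change in aTX was -2.15 (SE 0.62, adjusted p = 0.00832). Cox6a2, also of muscle, gave 1.4, 0.6, 2.1, 9.7 and 2.2 in aTX grafts, 2.4, 3.1, 2.5, 8.7 and 1.7 in sTX grafts and 1.5, 1.8, 1.5, 0.7 and 1.6 in ctr kidneys. These signals overlap near the floor of the scale and did not pass in any comparison.

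Cox6b2 and Cox7b2 are known from testis. Cox6b2 gave 25.2, 18.3, 19.9, 14.2 and 22.5 in aTX grafts, 50.7, 28.9, 30.5, 33.9 and 35.7 in sTX grafts and 5.7, 11.3, 13.5, 18.5 and 21.4 in ctr kidneys. The sTX arrays were above both other groups, with 1.46 (SE 0.3, adjusted p = 0.00166) against ctr, while the aTX change did not pass (0.62, adjusted p = 0.11). Cox7b2 gave 7.3, 0.7, 3.5, 0.3 and 5.3 in aTX grafts, 8.5, 4.6, 4.4, 1.0 and 8.3 in sTX grafts and 0.6, 4.0, 2.2, 4.9 and 5.2 in ctr kidneys. It overlapped in all groups and did not pass. The pseudogene Cox6c-ps1 averaged 29.8 ± 5.56 in aTX, 39.9 ± 10.1 in sTX and 32.3 ± 10.9 in ctr (SD, n = 5 each) and did not pass either.

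Cox8b, the isoform of heart, muscle and brown fat, gave 3.5, 1.2, 0.6, 2.3 and 1.3 in aTX grafts, 1.8, 7.8, 0.7, 3.7 and 1.6 in sTX grafts and 23.0, 20.3, 98.1, 12.7 and 24.5 in ctr kidneys. Every ctr array was higher than every graft array, and ctr 3 stood far above the other controls. The change was -4.17 (SE 0.68, adjusted p = 3.14e-05) in aTX and -3.58 (SE 0.68, adjusted p = 0.000772) in sTX. Ucp1, the uncoupling protein that defines brown fat, had 1.9, 2.3, 6.5, 6.5 and 6.6 in aTX grafts, 6.0, 1.3, 4.9, 7.6 and 6.4 in sTX grafts and 46.7, 62.9, 269.8, 29.7 and 40.6 in ctr kidneys. It was likewise high in ctr arrays only and highest in ctr 3. The list used for brown fat held 5 genes, Ucp1, Cidea, Fabp4, Adipoq and Plin1. Their summed signal ran from 87.1 to 123.8 in aTX grafts, 186.0 to 242.4 in sTX grafts and 205.6 to 730.2 in ctr kidneys. Ucp1 was at most 7.6 in any graft, so the other genes of the list made up most of the sum there. Of the list, 4 of 5 were lower in aTX and 1 of 5 in sTX. Of the 8 muscle markers, 7 had a mean under 20 in each group. The part of brown fat in the Cox8b signal was not tested.

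**Figure D3:**
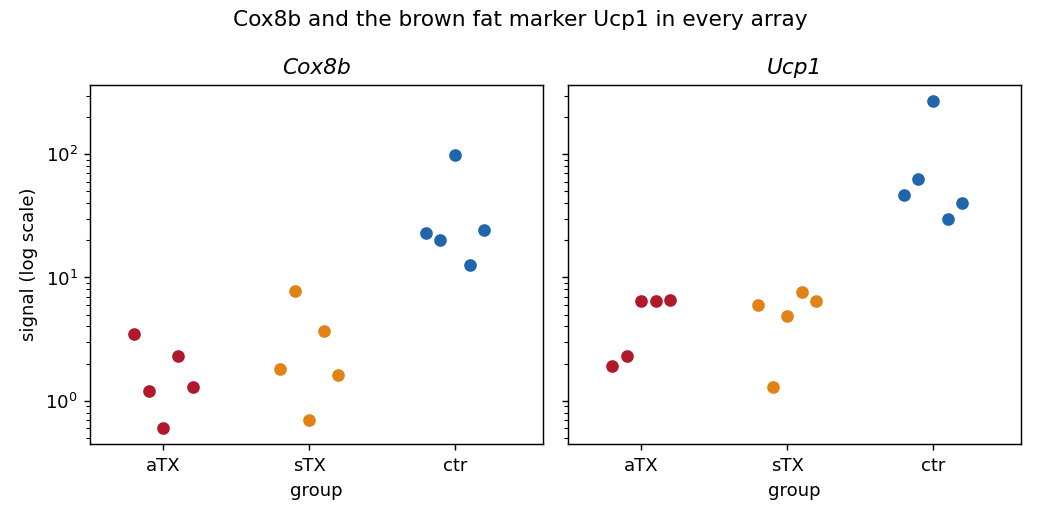
Signal on a log scale (y axis) of Cox8b and of Ucp1 in each array of aTX, sTX and ctr. In both genes all graft arrays are under 8 and all ctr arrays above 12, with ctr 3 at 98.1 for Cox8b and 269.8 for Ucp1.

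To follow the complexes array by array, the log2 signals of the members of at least 500 were set against the ctr mean and averaged. Complex II stood at -0.46, -0.38, -0.40, -0.34 and -0.48 in aTX grafts, -0.11, -0.11, -0.18, -0.13 and 0.06 in sTX grafts and -0.02, -0.04, -0.07, 0.02 and 0.10 in ctr kidneys. Complex III stood at -0.43, -0.31, -0.37, -0.35 and -0.51 in aTX grafts, 0.00, 0.07, -0.14, -0.01 and 0.13 in sTX grafts and -0.02, -0.04, -0.03, 0.02 and 0.07 in ctr kidneys. Complex V stood at -0.40, -0.28, -0.31, -0.31 and -0.48 in aTX grafts, -0.02, 0.04, -0.19, -0.03 and 0.14 in sTX grafts and -0.02, -0.05, -0.05, 0.01 and 0.10 in ctr kidneys. In these 3 complexes no aTX array reached the sTX or ctr range. Complex IV stood at -0.21, -0.12, -0.18, -0.19 and -0.34 in aTX grafts, 0.00, 0.05, -0.13, -0.02 and 0.15 in sTX grafts and -0.05, -0.08, -0.08, 0.09 and 0.12 in ctr kidneys. Here the aTX and sTX ranges touched, since aTX 2 was at -0.12 and sTX 3 at -0.13. The 9 members averaged for complex IV include Cox7a2l, which rose. With all 17 members, the weak isoforms included, complex IV averaged -0.51 ± 0.158 in aTX, 0.00 ± 0.14 in sTX and 0.00 ± 0.164 in ctr (SD, n = 5 each).

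**Figure D4:**
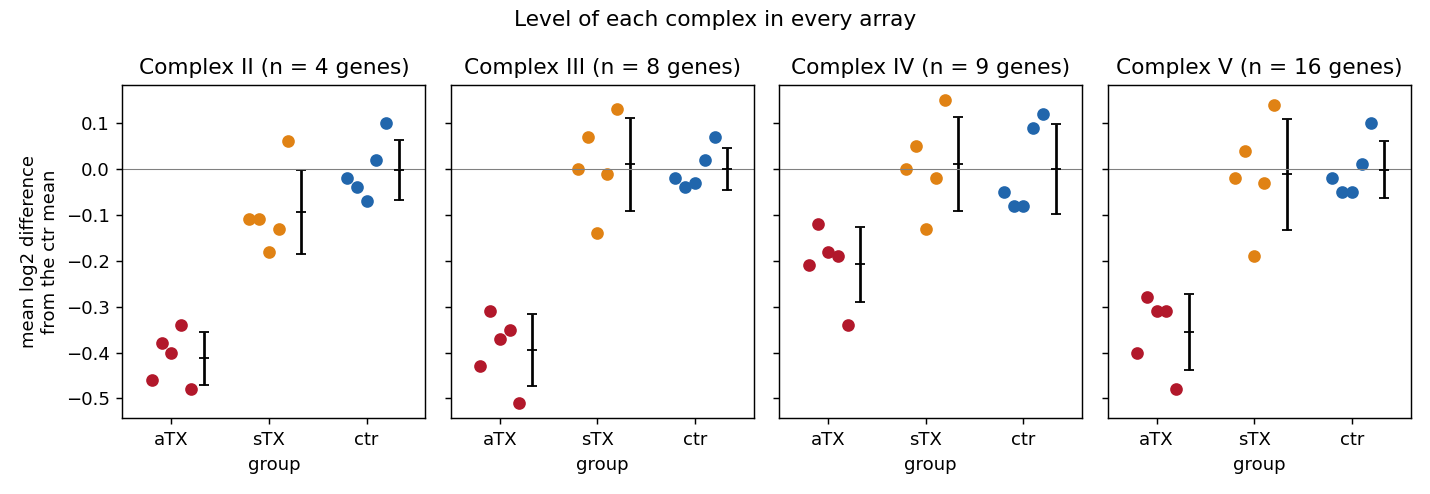
Mean log2 difference from the ctr mean (y axis) over the members of at least 500 of each complex, 1 point per array, with the mean and SD beside each group. The aTX arrays lie between -0.51 and -0.28 in complexes II, III and V and between -0.34 and -0.12 in complex IV.

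After syngeneic transplantation the members were close to ctr. 1 member fell (Cox8b) and 2 rose (Cox7a2l and Cox6b2), or 2.2% and 4.4% of the 45, against 6.32% lower and 11.4% higher of all probe sets. Of the 37 members of at least 500, 0 fell and 1 rose, while 20.8% of the 1928 probe sets of that signal were lower and 18.4% higher. At an unadjusted p below 0.05 the counts over all 45 were the same, 1 lower and 2 higher. The median change was -0.01, and in 1 member every sTX array was below every ctr array (4.72% of all probe sets). Of the members of at least 500, the most negative change was that of Atp5me of complex V, -0.26 (SE 0.143, adjusted p = 0.255). By complex, the median furthest from 0 was that of complex II, -0.09, with 4 of 4 genes below 0, none of which passed. Sdhc gave -0.14 (SE 0.08, adjusted p = 0.281) and Sdhb -0.12 (SE 0.065, adjusted p = 0.257), and the second Sdhd probe set, which stands for no member, passed at -0.21 (SE 0.071, adjusted p = 0.0428).

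This near zero depends on the scaling. With each array centred on its median signal, the sTX median became -0.20 and 14 members were lower and 1 higher, among them all 4 genes of complex II. The 14 are 31.1% of the members, against 15.2% lower and 5.8% higher of all probe sets with that centring. The median over all probe sets was then -0.106, against 0.088 as deposited. No sTX array shares a fluidics run with a ctr array, so run and group cannot be told apart in this comparison apart from what the aTX arrays of both runs add. A fit with the run as a block gave a median of 0.13 with 0 members called lower and 0 higher. Few probe sets of any kind were called there, 0.8% lower and 2.3% higher of all, with a median of 0.07. In that fit Cox7a2l had 0.23 (adjusted p = 0.241), Cox6b2 1.0 (adjusted p = 0.387) and Cox8b -4.43 (adjusted p = 0.0501). Without sTX 4 and sTX 5, whose treatment field disagrees with the title, 1 member was lower and 2 higher. Of all probe sets, 5.7% were lower and 9.8% higher without these 2 arrays.

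Set against each other, aTX grafts were lower than sTX grafts in 34 of 45 members and higher in 0, or 75.6% and 0.0%, against 22.1% lower and 13.9% higher of all probe sets. Of the 37 members of at least 500, 83.8% were lower, against 45.4% of the 1928 of like signal, where 27.8% were higher. The median was -0.34. In 22 members every aTX array was below every sTX array, as in 17% of all probe sets. Atp5mpl had -0.63 (SE 0.059, adjusted p = 4.73e-08), Uqcr11 -0.60 (SE 0.071, adjusted p = 1.12e-06) and Sdhd -0.43 (SE 0.067, adjusted p = 3.18e-05). Of the 37, the 6 that did not pass here were Cox4i1 (-0.15, adjusted p = 0.217), Cox7b, Cox7a2l, Atp5f1b, Atp5pb and Atp5if1. The centring on medians left 16 members lower and 1 higher (Cox7a2l, 0.17, adjusted p = 0.0366), with a median of -0.22, against 16.9% lower, 17.5% higher and a median of -0.057 over all probe sets with that centring. Those 16 are 35.6% of the members. Without sTX 4 and sTX 5, 23 members were lower and 0 higher, against 17.8% lower and 12.1% higher of all probe sets.

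The instrument record gives a time for each array, and 2 fluidics runs were inferred by splitting the time of day at noon. Run 1 holds all ctr arrays and aTX 2, 3 and 4, and run 2 holds all sTX arrays and aTX 1 and 5. Averaged over the members of at least 500, the aTX arrays of run 1 stood at -0.28 and those of run 2 at -0.41 from the ctr mean. Within run 1, aTX against ctr gave 28 members lower and 1 higher with a median of -0.30, against 19.4% lower and 17.1% higher of all probe sets. Within run 2, aTX against sTX gave 30 lower and 0 higher with a median of -0.39, against 16.5% lower and 11.6% higher of all. Within run 1 the groups were split by fluidics station too, since aTX 2, 3 and 4 and ctr 5 were on station 2 and ctr 1 to 4 on station 1. With run and station both as blocks, a fit added after the data had been seen, aTX against ctr gave 24 members lower and 1 higher with a median of -0.34, against 17.3% lower and 15.7% higher of all probe sets. Of the members named above as lower, Uqcrc1, Uqcrc2, Cox6a1, Cox6c, Cox5b, Atp5f1e, Atp5po and Atp5mg did not pass in that fit.

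The neighbours of complexes II to V in energy metabolism gave a wider range. In this comparison, aTX against ctr, 22.2% of all probe sets were lower and 20.2% higher, and 46.8% and 34.3% of those of at least 500. Of 35 measured complex I subunits 31 fell (88.6%) and 1 rose (2.9%), with a median of -0.50. Ndufv3, of the NADH-oxidising module, changed by -1.01, Ndufa6 by -0.97 and the small subunit Ndufb8 by -0.80. All 12 measured citrate cycle enzymes fell, with a median of -0.54, led by Ogdh (-0.92) of the oxoglutarate dehydrogenase complex, its partner Dld (-0.75), and Idh2 (-0.72), an isocitrate dehydrogenase.

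Smaller shares fell in the lists for building the complexes and for import. Of 35 assembly factors of complexes II to V, 14 fell (40%) and 4 rose (11.4%), with a median of -0.18. Sdhaf3, which helps to mature Sdhb, changed by -1.33, Fmc1, needed for the ATP synthase head in yeast, by -0.93, and Coa5, of complex IV, by -0.91. The 4 that rose, named after their values were seen, were Sco1 (0.70), a copper chaperone of complex IV, Cox18 (0.41), which inserts a subunit of the same complex, Coa4 (0.27) and Higd1a (0.59). Of 26 genes of mitochondrial import and the outer membrane, 7 fell and 6 rose, or 26.9% and 23.1% with a median of -0.08, which is near the 22.2%, 20.2% and -0.075 of all probe sets. Among them were Tomm34 (0.99), Tomm5 (0.82) and the pore Vdac1 (-0.69).

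The regulators went both ways, with 7 of 18 lower (38.9%) and 6 higher (33.3%), and a median of -0.12. Over the whole array these shares were 22.2% and 20.2%. In the repeat that dropped mean signals under 50, they were 38.5% and 35.3% of the 12626 probe sets kept. The counts of the regulators are thus close to that background. Their largest changes were in Ppara (-2.80) and Perm1 (1.61), both of low signal, and Esrrb (-1.57), an estrogen-related receptor. The factors of the 3 motifs and their coactivators are given as well, chosen after their values were seen. Ppargc1a, the coactivator of mitochondrial biogenesis, had 184, 197, 219.6, 219.7 and 196 in aTX grafts, 310.1, 310.4, 349, 436 and 304 in sTX grafts and 368, 403, 365, 476 and 347 in ctr kidneys. Every aTX array was below both other groups, and the change was -0.94 (SE 0.1, adjusted p = 1.48e-07). Esrrg (-1.17), a relative of Esrrb, fell and Esrra did not pass (-0.23, adjusted p = 0.201), while Nrf1 (0.52), Gabpa (0.48) and the coactivator Pprc1 (1.54) rose. Tfam, which packs mitochondrial DNA, did not pass (-0.01, adjusted p = 0.952). Among members with a promoter and a signal of at least 500, the 16 with a motif match had a median change of -0.34 with 13 lower, and the 16 without had -0.36 with 11 lower.

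**Figure D5:**
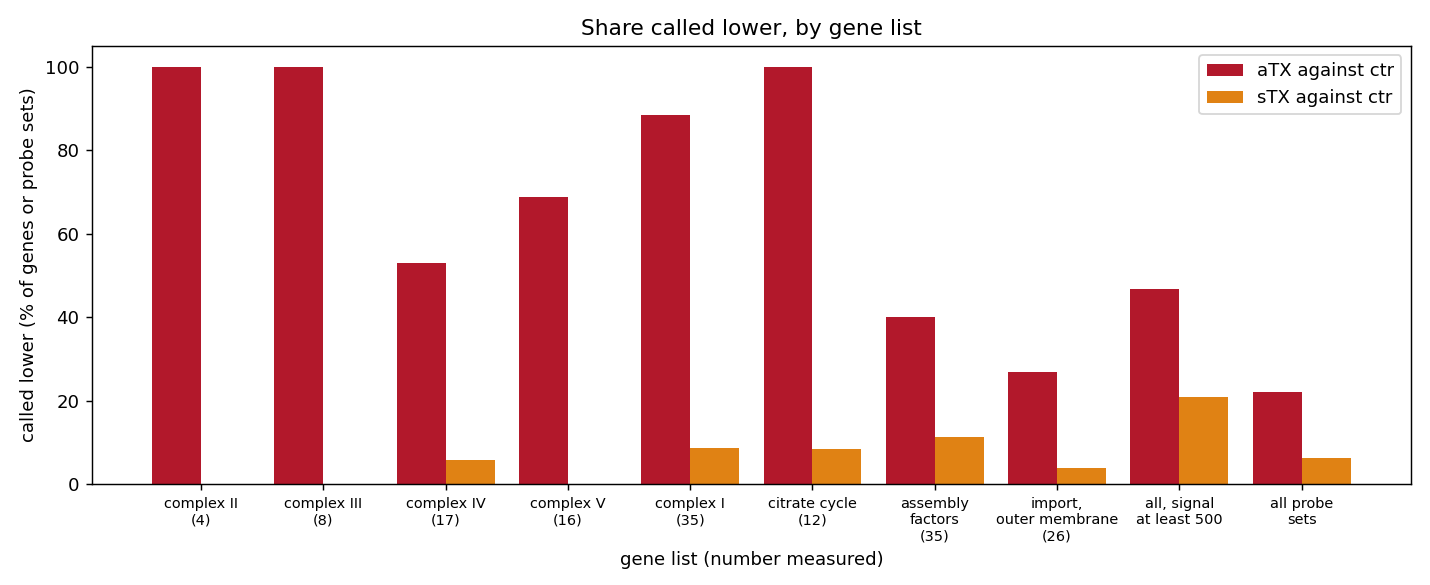
Share of genes called lower (y axis, %) by list for aTX against ctr (red, left bars) and sTX against ctr (orange, right bars), with the number measured under each name and all probe sets, or those with a signal of at least 500, at the right. In aTX, 4 of 4 complex II and 8 of 8 complex III genes were lower. In complex IV 9 of 17 and in complex V 11 of 16 were lower, and of all probe sets 22.2%. Among members with a signal of at least 500 the complex IV count was 6 of 9, and the other counts were the same. Of all probe sets of that signal, 46.8% were lower.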

How the data were processed

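Total RNA of whole kidneys was hybridised to Affymetrix Rat Genome 230 2.0 arrays. The authors condensed the probes with MAS5 and deposited the signal intensities per probe set on a linear scale; without the top and bottom 2% of probe sets every array has a mean of 100. Of 31099 probe sets, 57 controls were left out. Signals of 0 (54 values) were set to 0.05 before log2. The 3 groups were compared in 1 fit of 15 arrays with limma 3.58.1 in R 4.3.3 (lmFit, contrasts.fit, eBayes with an intensity trend), with Benjamini-Hochberg adjustment over 31042 probe sets and calls at an adjusted p below 0.05. The fit was tested on simulated data. Means ± SD are of signals, and changes are differences of mean log2 signal. Tables and plots used Python 3.11.15, pandas 2.3.3, numpy 2.4.6, scipy 1.17.1 and matplotlib 3.10.9.

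Members, gene lists and tests were chosen with earlier results of these data known. All members may be named. Values in all 15 arrays were given for complex II, for the 3 members of each other complex with the largest called changes in aTX against ctr (geometric mean of at least 100), for Cyc1, for members called in sTX against ctr, for the 3 brightest not called, and for tissue isoforms with their counterparts and Atp5mc3. Of other lists, up to 3 called genes with the largest changes were named. Gene symbols came from the platform's annotation, and all 45 members matched RefSeq by gene ID. Same-numbered arrays did not deviate together (0 of 15 pairs correlated above 0.1), so numbers were not used as pairs. Alternatives are given in the closing section. Detection calls were not used here.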

Additional observations from a re-analysis of the deposited data

Results flagged for a closer look

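Among the members given array by array and the 4 complex levels with their mean, 90 groups of 5 arrays were examined for 1 array far from the other 4 (gap over range above 0.71). Chance alone marks about 1 in 20 groups, and 8 of the 90 were marked. sTX 5 was the highest sTX array for Sdha (2195.3), Sdhd (2139.3) and Atp5mf (3093.8), and sTX 3 was the lowest for Atp5me (805.7). Among the weak isoforms, aTX 4 (9.7) and sTX 4 (8.7) were the highest and ctr 4 (0.7) the lowest of their groups for Cox6a2. For Cox8b, ctr 3 had a signal of 98.1, while the other ctr arrays had at most 24.5.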

How the results depend on the processing

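Each comparison was repeated with other scalings, filters, models and sets of arrays. Centring each array on its median moved the medians of aTX against ctr to -0.47 (complex II) and -0.43 (complex III). In sTX against ctr it gave 14 members lower and 1 higher, with medians of -0.20 over all members and -0.29, -0.20, -0.19 and -0.19 in complexes II to V. In aTX against sTX it gave 16 lower and 1 higher, with medians of -0.22 over all members and -0.19, -0.27, -0.20 and -0.21 in complexes II to V. With the fluidics run as a block, sTX against ctr had 0 lower and 0 higher, against 0.8% and 2.3% of all probe sets. The medians were 0.13 over all members and 0.01, 0.16, 0.15 and 0.16 in complexes II to V. The complex III median of aTX against sTX was -0.48 with this block and -0.48 within 1 fluidics run. With run and station as blocks, added after the data had been seen, sTX against ctr had 0 lower and 0 higher, against 0.5% and 1.7% of all probe sets. The complex III median was 0.13 there, and Cox7a1 in aTX against sTX turned to 0.34 (adjusted p = 0.819). Quantile normalization gave 38 lower and 1 higher in aTX against ctr, against 23.4% lower and 18.9% higher of all probe sets. The filter on a mean signal of at least 50 left sTX against ctr with 0 lower and 1 higher. It removed Cox8b and Cox6b2, with mean signals of 13.5 and 23.3, so neither was tested there. Of the 12626 probe sets kept, 15.5% were lower and 22.2% higher. The methods' t-test at its unadjusted threshold of 0.001 gave 22 lower and 1 higher in aTX against ctr, 0 lower and 1 higher in sTX against ctr and 15 lower and 0 higher in aTX against sTX. The shares of all probe sets were 12.3% and 12.5%, 2.3% and 4.3%, and 11.1% and 9.1%. After Benjamini-Hochberg it gave 30 and 1, 1 and 2, and 31 and 0, against 20.1% and 18.9%, 4.6% and 8.1%, and 20.7% and 13.9% of all. The second Atp5me probe set turned the aTX against sTX change to 0.19 (adjusted p = 0.812). The cause of these shifts was not tested.

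Leaving out each array in turn gave 30 to 35 members lower and 1 to 2 higher in aTX against ctr, 1 to 2 lower and 2 higher in sTX against ctr, and 27 to 34 lower and 0 higher in aTX against sTX. Of all probe sets, 20.7% to 22.1%, 5.1% to 6.5% and 20.4% to 22.5% were lower in these repeats. Those higher were 19.0% to 20.2%, 9.2% to 11.3% and 13.2% to 14.3%. The second riser in aTX came without ctr 5 (Cox6b2, 0.80, adjusted p = 0.0379), and the second fall in sTX without ctr 4 (Atp5me, -0.39, adjusted p = 0.0401). With the replicate number as a block, 31 members were lower and 1 higher in aTX against ctr, 1 lower and 2 higher in sTX against ctr, and 31 lower and 0 higher in aTX against sTX. In all other settings the member counts stayed within 1.5 times those of the text. Weak signals limit the isoforms under 100, and 5 arrays per group limit the rest.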
